A study of Homo sapiens with 6 samples.

Results

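The genes described here are 31 genes of cholesterol synthesis and of the sterol regulatory element-binding protein (SREBP) system, measured by RNA sequencing in K562 cells. They were chosen by gene symbol, with earlier results of these data known. All 31 were found by NCBI Gene ID among the 25702 genes counted. All 31 passed the filter on low counts, which kept 15431 genes, and the lowest count of any of them in any library was 314. K562 is an established human cell line from chronic myeloid leukaemia with erythroid features. The cells were transfected with the pCMV-HA plasmid, in which the cytomegalovirus promoter drives an HA-tagged insert. The plasmid was empty in the control group (EV), carried MXD3 in the second group and carried the fusion STIM1::MXD3 in the third. There were 2 libraries per group, numbered replicate 1 and replicate 2, and the study describes them as independent transfections. All groups shared the same cell line, its own MXD3 and STIM1 genes and the same vector, and no further treatment was given. The share of cells that took up a plasmid is not analysed here, and in bulk RNA a change in a few cells cannot be told apart from a smaller change in all of them, nor fewer cells of a kind from less RNA per cell. In the plasmid comparisons the p-values measure the spread between these transfections of 1 cell line. Between the replicate numbers they measure the spread over the plasmid groups, with 1 library per group and number. In both cases the spread of each gene was estimated partly from the other genes tested.

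Cholesterol is built from acetyl-CoA through mevalonate, farnesyl diphosphate, squalene and lanosterol. The transcription factors SREBP1 and SREBP2, encoded by SREBF1 and SREBF2, are held in the membrane of the endoplasmic reticulum by SCAP and the INSIG proteins while sterols are plentiful. When sterols run low, SCAP carries the precursors to the Golgi apparatus, where they are cleaved, and the released part enters the nucleus and binds promoters of the enzyme genes, often together with the CCAAT-binding factor NF-Y. INSIG1 is itself a target, which closes a feedback loop. Dividing leukaemia cells make sterols for new membranes, and MXD3 is a MYC antagonist that binds E-boxes. The study asked what MXD3 and the fusion, which lacks the amino-terminal repression domain of MXD3, change in K562 cells.

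The libraries held between 53048343 and 63835779 counts. Levels are given as counts-per-million (CPM) after scaling with trimmed mean of M values (TMM). MXD3 was at 9.33 and 11.7 CPM in EV, at 2524 and 2162 CPM in MXD3 and at 1975 and 1849 CPM in STIM1::MXD3, as labelled. STIM1 was at 205 and 176 CPM in EV, at 187 and 159 CPM in MXD3 and at 471 and 453 CPM in STIM1::MXD3, in which the fusion carries the start of STIM1. All 10 K562 markers examined were at 10 CPM or more in every library. Of 9 markers of other cells, 4 (CD3E, MS4A1, CD14 and MPO) were under 1 CPM in every library, whereas LYZ (at most 27.0 CPM) and EPCAM (at most 101 CPM) were above 10 CPM in all of them.

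The promoters shown here belong to members with the smallest p-values in the comparison of replicate numbers, where most members differed, and carry a searched motif. The windows span 250 bases before to 50 bases after each RefSeq start (GRCh38.p14 promoter table) and were placed in GRCh37 by exact match. Capitals mark CCAAT or its reverse complement ATTGG, or the E-box CACGTG, and each sequence runs 5′ to 3′ on the strand of the gene.
MSMO1, chr4:166248626-166248801, plus strand: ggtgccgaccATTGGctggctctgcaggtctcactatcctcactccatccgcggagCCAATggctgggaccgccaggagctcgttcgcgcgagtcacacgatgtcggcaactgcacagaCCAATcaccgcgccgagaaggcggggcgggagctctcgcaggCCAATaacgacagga
IDI1, chr10:1095162-1095284, minus strand: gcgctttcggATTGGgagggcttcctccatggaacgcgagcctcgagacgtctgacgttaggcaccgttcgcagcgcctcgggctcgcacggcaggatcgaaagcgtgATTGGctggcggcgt
DHCR7, chr11:71159482-71159543, minus strand: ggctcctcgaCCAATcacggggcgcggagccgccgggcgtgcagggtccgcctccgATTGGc
HMGCS1, chr5:43313655-43313679, minus strand: tttccttttgATTGGtagaagccgg
INSIG1, chr7:155089408-155089432, plus strand: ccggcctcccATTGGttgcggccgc
INSIG1, chr7:155089523-155089548, plus strand: cgggcaggctCACGTGatgcgggccc

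The first 5 stretches lie outside exons of the GENCODE annotation, while the E-box of INSIG1 lies in an annotated exon. A CCAAT box, searched as CCAAT on both strands, was present in at least 1 window of 20 of the 27 members found in the promoter table (74.1%) and of 43.0% of the 11468 tested genes found there. The MSMO1 stretch held 4 such boxes. The E-box CACGTG was present in 4 members (SCAP, INSIG1, LSS and SC5D; 14.8%) and in 12.3% of tested genes. The core of the sterol regulatory element, searched as TCACNCCAC on both strands, was present in the window of SREBF2 alone, 1 member of 27 (3.7%), against 1.4% of tested genes. CACGTG reads the same on both strands, and CCAAT matches on opposite strands can share bases. ACAT2, FASN, FDFT1 and SQLE were not matched. These matches describe letters in the windows and do not show binding.

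The pathway was well expressed in K562 cells. Per kilobase of annotated exon, the EV mean was highest for INSIG1 at 160 CPM per kilobase, followed by FDFT1 at 130, SQLE at 121 and FASN at 104 CPM per kilobase. The lowest EV means were 2.22 CPM per kilobase for INSIG2 and 3.77 CPM per kilobase for HSD17B7. The 31 genes together took between 0.558% and 0.919% of a library's counts. This share was 0.804%, 0.919% and 0.82% in the replicate 1 libraries of EV, MXD3 and STIM1::MXD3, and 0.653%, 0.612% and 0.558% in the replicate 2 libraries in the same order, so that the ranges of the replicate numbers did not overlap.

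**Figure D1:**
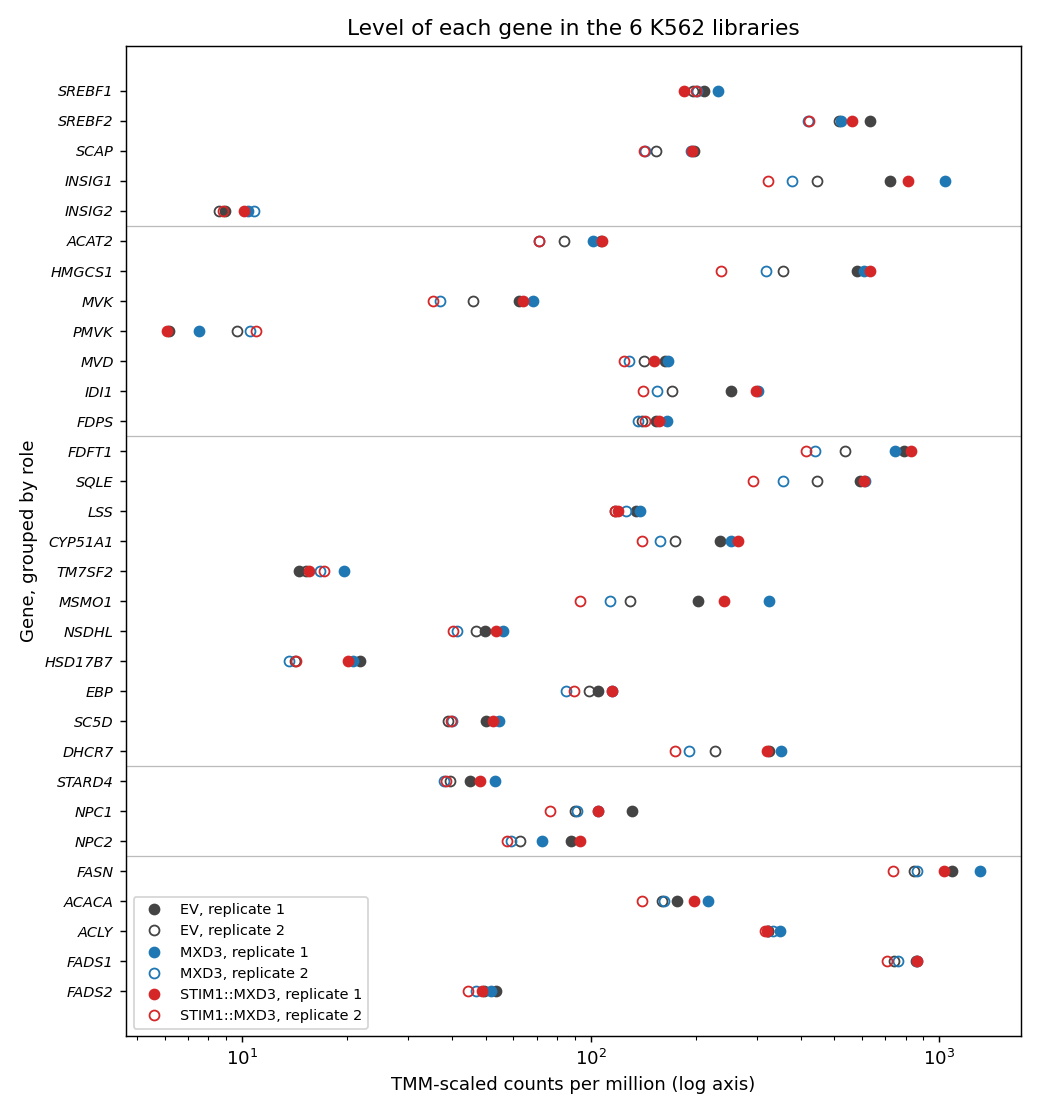
Level of each of the 31 genes in each library, in TMM-scaled CPM on a log axis; filled points are replicate 1 libraries, open points replicate 2 libraries, colours the plasmid groups, and grey lines separate the roles (regulators, mevalonate steps, squalene and sterol steps, sterol transport, fatty acid synthesis). For 24 genes the 3 filled points lie to the right of the 3 open points, and for PMVK to the left.

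Between MXD3 and EV none of the 31 genes differed past the threshold. In edgeR (quasi-likelihood F test, adjustment over all 15431 genes), 0 of 31 members were called (adjusted p below 0.05), beside 0.00648% of all genes, and none had an unadjusted p under 0.05. The fitted differences of the members ran from -0.29 to 0.40 on the log2 scale with a median of 0.012, beside 0.001 over all genes. DESeq2 also called 0 members. With the replicate number as a block, edgeR called 0 members, beside 0.292% of all genes, and 1 member had an unadjusted p under 0.05 (3.23%, beside 13.9% of all genes). DESeq2 with the block called 1 member, beside 1.57% of all genes.

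That member was SREBF2, the gene of SREBP2, the regulator of the sterol enzymes. Its level was 634 and 516 CPM in EV and 524 and 420 CPM in MXD3. It was lower in the MXD3 library of each replicate number, but the ranges of the groups overlapped. The edgeR log2 difference was -0.29 (SE 0.196, adjusted p = 0.999), and -0.29 with the block (SE 0.081, adjusted p = 0.135). DESeq2 with the block gave -0.29 (SE 0.084, adjusted p = 0.0339).

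The other members named in this comparison had the smallest unadjusted p in edgeR without the block. TM7SF2, which reduces the sterol C14 double bond, was at 14.5 and 15.2 CPM in EV and at 19.6 and 16.7 CPM in MXD3. The ranges did not overlap, and the edgeR log2 difference of 0.29 (SE 0.162) had an adjusted p of 0.999. Both MXD3 libraries were above both EV libraries for 3 members (9.68%, beside 16.2% of all genes) and below both for 0 (beside 14.8%). INSIG2, which encodes a retention protein and had low RNA levels, was at 8.96 and 8.59 CPM in EV and at 10.4 and 10.8 CPM in MXD3. Both MXD3 libraries were above both EV libraries, with an edgeR log2 difference of 0.28 (SE 0.176, adjusted p = 0.999). ACACA, which makes malonyl-CoA for fatty acids, was at 176 and 161 CPM in EV and at 216 and 163 CPM in MXD3. Its ranges overlapped, its edgeR log2 difference was 0.17 (SE 0.209, adjusted p = 0.999), and it was -0.04 without the replicate 1 library of MXD3. The median of the members was -0.25 without that library and 0.20 without the replicate 2 library of MXD3.

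STIM1::MXD3 likewise gave no member past the threshold against EV. EdgeR called 0 of 31 members, beside 0.00648% of all genes, with none at an unadjusted p under 0.05, and DESeq2 called 0. With the block edgeR called 0 members, beside 0.0194% of all genes, with 4 members at an unadjusted p under 0.05 (12.9%, beside 8.5% of all genes). These 4 were NPC1, SREBF2, SQLE and DHCR7, all lower in STIM1::MXD3, with adjusted p of 0.479 to 0.587 in that fit. DESeq2 with the block called 0 of the 28 members to which it gave an adjusted p, beside 29 genes over all genes tested. The fitted log2 differences ran from -0.29 to 0.14 with a median of -0.045, beside 0.010 over all genes. Leaving out the replicate 1 library of STIM1::MXD3 moved the median to -0.31, and leaving out the replicate 2 library moved it to 0.16. Without the replicate 2 library of EV it was -0.21.

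NPC1, which exports cholesterol from lysosomes, was at 132 and 89.9 CPM in EV and at 105 and 76.6 CPM in STIM1::MXD3. It was lower in each replicate number, the ranges overlapped, and the edgeR log2 difference was -0.29 (SE 0.227, adjusted p = 1.0). It was 0.01 without the replicate 1 library of EV, the highest of the 6. SREBF2 was at 562.3 and 424 CPM in STIM1::MXD3, again lower than EV in each replicate number with overlapping ranges, and its edgeR log2 difference was -0.22 (SE 0.195, adjusted p = 1.0). The EV libraries are the same ones in both comparisons. FADS2, the delta-6 desaturase, was at 53.7 and 49.5 CPM in EV and at 48.8 and 44.4 CPM in STIM1::MXD3, with a log2 difference of -0.15 (SE 0.133) and an edgeR adjusted p of 1.0. Both fusion libraries were below both EV libraries for FADS2. This held for 2 of 31 members (6.45%), beside 1546 of the 15431 genes tested. They were above both EV libraries for 1 member, TM7SF2 (3.23%), beside 1845 of the 15431 genes. Both shares were smaller among the members than among all genes. TM7SF2 was at 15.6 and 17.2 CPM in STIM1::MXD3, above both EV libraries, with an edgeR log2 difference of 0.14 (SE 0.162, adjusted p = 1.0).

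The direct comparison of the fusion with MXD3 called 0 of 31 members in edgeR, beside 0.0% of all genes, and none had an unadjusted p under 0.05. DESeq2 without the block called 0 members. EdgeR with the block called 0 members, beside 0.00648% of all genes, and 3 had an unadjusted p under 0.05 (9.68%, beside 6.49% of all genes). These 3 were FASN, MSMO1 and INSIG1, all lower in STIM1::MXD3, with adjusted p of 0.641 to 0.74 in that fit. DESeq2 with the block gave an adjusted p to 9 of the 31 members and called 0 of them, beside 11 genes over all genes tested. The lowest adjusted p of the 9 in that fit was 0.0551, for FASN. The fitted log2 differences ran from -0.39 to 0.19 with a median of -0.08, beside 0.008 over all genes, and 26 of 31 were below 0. In both replicate numbers 17 of 31 members were lower in STIM1::MXD3 (54.8%), beside 26.1% of all genes tested. The median depended on single libraries, at 0.19 without the replicate 1 library of MXD3, 0.14 without the replicate 2 library of STIM1::MXD3, -0.25 without the replicate 2 library of MXD3 and -0.27 without the replicate 1 library of STIM1::MXD3.

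SREBF1, whose product favours fatty acid genes, was at 232 and 202 CPM in MXD3 and at 185 and 201 CPM in STIM1::MXD3. Both fusion libraries were below both MXD3 libraries, and the edgeR log2 difference was -0.17 (SE 0.131, adjusted p = 1.0). LSS, which closes the sterol ring to lanosterol, was at 138 and 126 CPM in MXD3 and at 120 and 117 CPM in STIM1::MXD3. These ranges did not overlap either, with an edgeR log2 difference of -0.15 (SE 0.128, adjusted p = 1.0). FASN, the fatty acid synthase, was at 1306 and 860 CPM in MXD3 and at 1031 and 734 CPM in STIM1::MXD3. It was lower in each replicate number with overlapping ranges, the edgeR log2 difference was -0.30 (SE 0.255, adjusted p = 1.0), and it was 0.02 without the replicate 1 library of MXD3. INSIG2 was at 10.1 and 8.84 CPM in STIM1::MXD3, below both MXD3 libraries, with an edgeR log2 difference of -0.16 (SE 0.175, adjusted p = 1.0). Both fusion libraries were below both MXD3 libraries for 4 members (12.9%, beside 10.2% of all genes) and above both for 0 (beside 10.9%).

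The intervals of the plasmid comparisons depended on whether the replicate number was in the fit. For INSIG2 in MXD3 against EV the 95% confidence interval of the log2 difference ran from -0.14 to 0.69, and from -0.06 to 0.61 with the block. For INSIG1, whose libraries of 1 group lay far apart, it ran from -1.06 to 1.62 in the same comparison and from -1.38 to 1.30 in STIM1::MXD3 against EV. Those intervals hold a 2-fold change. With the block they ran from -0.14 to 0.41 and from -0.44 to 0.12, which do not.

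**Figure D2:**
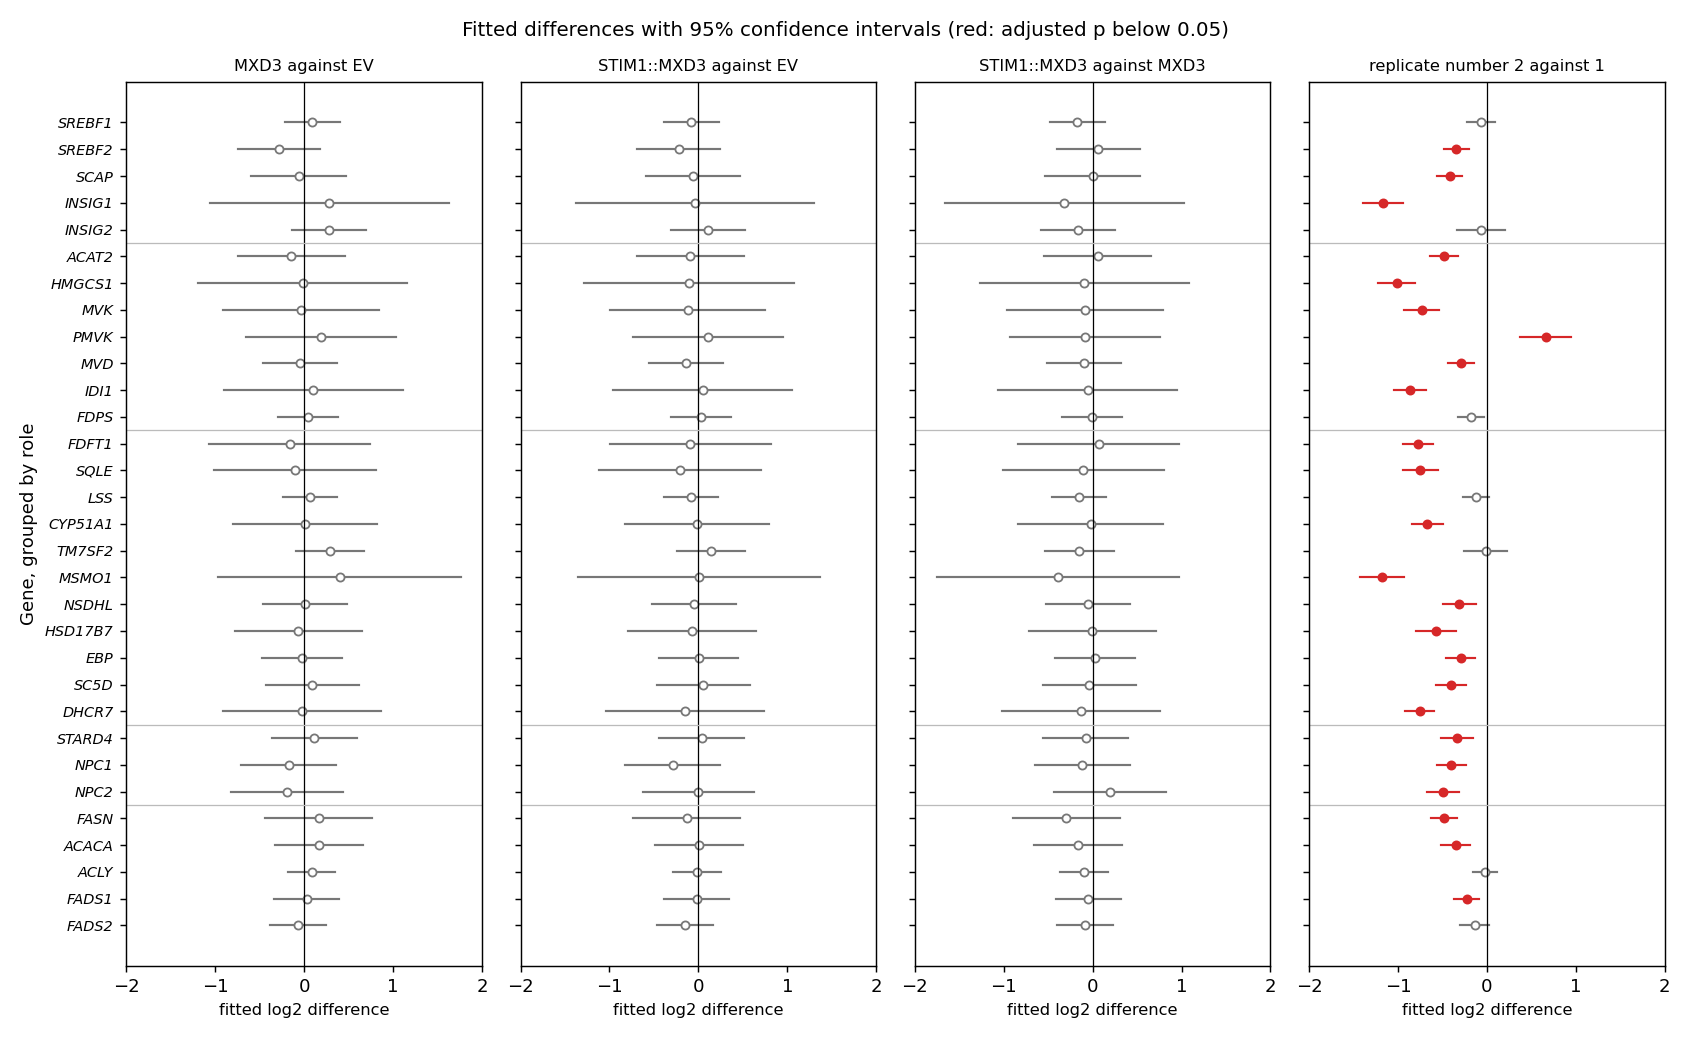
Fitted log2 differences of the 31 genes from edgeR (points) with 95% confidence intervals (bars) for the 3 plasmid comparisons and for replicate number 2 against 1; red marks an adjusted p below 0.05. No gene is red in the plasmid comparisons, and 24 are red in the comparison of replicate numbers, 23 of them below 0.

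Most of the 31 genes differed between the replicate numbers. Between the replicate 2 and the replicate 1 libraries, 3 of each, with the group as a term, 24 of 31 members were called by edgeR, 23 of them lower in replicate 2 and 1, PMVK, higher. Over all genes tested 29.2% were called, 16.1% lower and 13.1% higher. The median log2 difference of the members was -0.40, beside 0.006 over all genes. The number is the replicate number of the labels, which do not say what else differed between the transfections. The p-values rest on how far the replicate difference varied between the plasmid groups. The spread of each gene was estimated partly from the other genes tested, not from its own 3 groups alone. The p-values do not measure how far further replicates would differ. All 3 replicate 1 libraries were above all 3 replicate 2 libraries for 24 members (77.4%, beside 20.6% of all genes). The opposite held for PMVK (3.23%, beside 18.0%). The list of members was written with earlier results of these data known, so these shares are descriptions and not an independent test.

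Among the regulators, 3 of 5 were called, all lower. INSIG1, the sterol-sensing retention protein and feedback target, was at 721, 1041 and 815 CPM in the replicate 1 libraries of EV, MXD3 and STIM1::MXD3, and at 445, 378 and 322 CPM in the replicate 2 libraries. The lowest replicate 1 library was well above the highest replicate 2 library. The edgeR log2 difference was -1.17 (SE 0.108, adjusted p = 4.57e-06), 2.25-fold lower. DESeq2 gave -1.16 with a larger SE of 0.321 (adjusted p = 0.00188). SREBF2 (-0.34) and SCAP (-0.42), the escort protein, were also lower. SCAP was between 142 and 198 CPM over the 6 libraries. SREBF1 (log2 difference -0.07) and INSIG2 (-0.07) were not called, with adjusted p of 0.538 and 0.737.

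Of the 7 enzymes from acetyl-CoA to farnesyl diphosphate, 5 were lower and 1 higher in replicate 2. HMGCS1, the cytosolic synthase of HMG-CoA, was at 579, 607 and 630 CPM in the replicate 1 libraries and at 356, 318 and 237 CPM in the replicate 2 libraries of EV, MXD3 and STIM1::MXD3. All replicate 1 libraries were higher, with an edgeR log2 difference of -1.02 (SE 0.100, adjusted p = 8e-06). An antisense gene shares 37.7% of the HMGCS1 exon bases, and the use of strand in counting is not given in the sources used here. IDI1, the isopentenyl diphosphate isomerase, was at 253, 301 and 297 CPM in replicate 1 and at 171, 155 and 142 CPM in replicate 2. The sets did not overlap, and the edgeR log2 difference was -0.86 (SE 0.085, adjusted p = 8.67e-06). IDI2-AS1 on the opposite strand shares 15.0% of its exon bases.

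MVK, the mevalonate kinase, ranged from 35.3 to 68.5 CPM and had a log2 difference of -0.73. ACAT2, which joins acetyl-CoA units (71.2 to 108 CPM), differed by -0.49, and MVD, the mevalonate diphosphate decarboxylase (124 to 167 CPM), by -0.29. FDPS, the farnesyl diphosphate synthase, lay just outside the threshold, at 137 to 166 CPM with a log2 difference of -0.18 and an edgeR adjusted p of 0.056. On the opposite strand, FDPS shares 18.6% of its exon bases with RUSC1-AS1 and ACAT2 17.2% with TCP1. PMVK, the phosphomevalonate kinase between MVK and MVD, went the other way, at 6.17, 7.55 and 6.09 CPM in replicate 1 and at 9.70, 10.5 and 10.97 CPM in replicate 2. It was named after its value was seen, as the single member that was higher, and its edgeR log2 difference was 0.66 (SE 0.137, adjusted p = 0.00214).

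Of the 11 genes of the squalene and sterol steps, 9 were lower in replicate 2 and none was higher. MSMO1, the sterol C4-methyl oxidase, was at 202, 324 and 242 CPM in the replicate 1 libraries of EV, MXD3 and STIM1::MXD3. In the replicate 2 libraries it was at 130, 114 and 93.1 CPM in the same order. The sets were well apart, and the edgeR log2 difference of -1.18 (SE 0.117, adjusted p = 9.08e-06) was the lowest of the 31. DESeq2 gave MSMO1 -1.17 with a larger SE of 0.267 (adjusted p = 0.000119). FDFT1, the squalene synthase, was at 790, 745 and 828 CPM in replicate 1 and at 536, 441 and 414 CPM in replicate 2, again with no overlap, and the edgeR log2 difference was -0.77 (SE 0.080, adjusted p = 1.19e-05). DHCR7, which completes cholesterol from its 7-dehydro precursor, was at 324, 351 and 321 CPM in replicate 1 and at 227, 192 and 174 CPM in replicate 2. Here too no libraries overlapped, with an edgeR log2 difference of -0.76 (SE 0.078, adjusted p = 1.12e-05).

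SQLE, the squalene epoxidase, ranged from 292 to 612 CPM and differed by -0.75, and CYP51A1, the lanosterol demethylase, ranged from 140 to 264 CPM and differed by -0.67. CYP51A1 shares 68.2% of its exon bases with another annotated gene on the same strand, so its counts are uncertain. HSD17B7 (13.6 to 21.9 CPM, log2 difference -0.58), which has a pseudogene copy, SC5D (39.0 to 54.6 CPM, -0.40), NSDHL (40.4 to 56.2 CPM, -0.31) and EBP (85.2 to 115 CPM, -0.29) act on the sterol ring and side groups and were all lower. EBP shares 36.4% of its exon bases with an annotated gene on the same strand. LSS (-0.12, adjusted p = 0.195) and TM7SF2 (-0.01, adjusted p = 0.956) were not called by edgeR.

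All 3 sterol transport genes were lower in replicate 2. The log2 difference was -0.49 for NPC2, the lysosomal cholesterol-binding partner of NPC1 (57.4 to 93.0 CPM), -0.40 for NPC1, and -0.33 for STARD4, a cytosolic sterol carrier (38.1 to 53.3 CPM). Of the 5 fatty acid genes 3 were lower, with log2 differences of -0.48 for FASN, -0.35 for ACACA and -0.23 for FADS1, the delta-5 desaturase (709 to 863 CPM). ACLY, which supplies cytosolic acetyl-CoA, was at 317 to 349 CPM and differed by -0.02 (95% confidence interval -0.16 to 0.11), and FADS2 differed by -0.13. Neither was called, with edgeR adjusted p of 0.82 and 0.211.

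**Figure D3:**
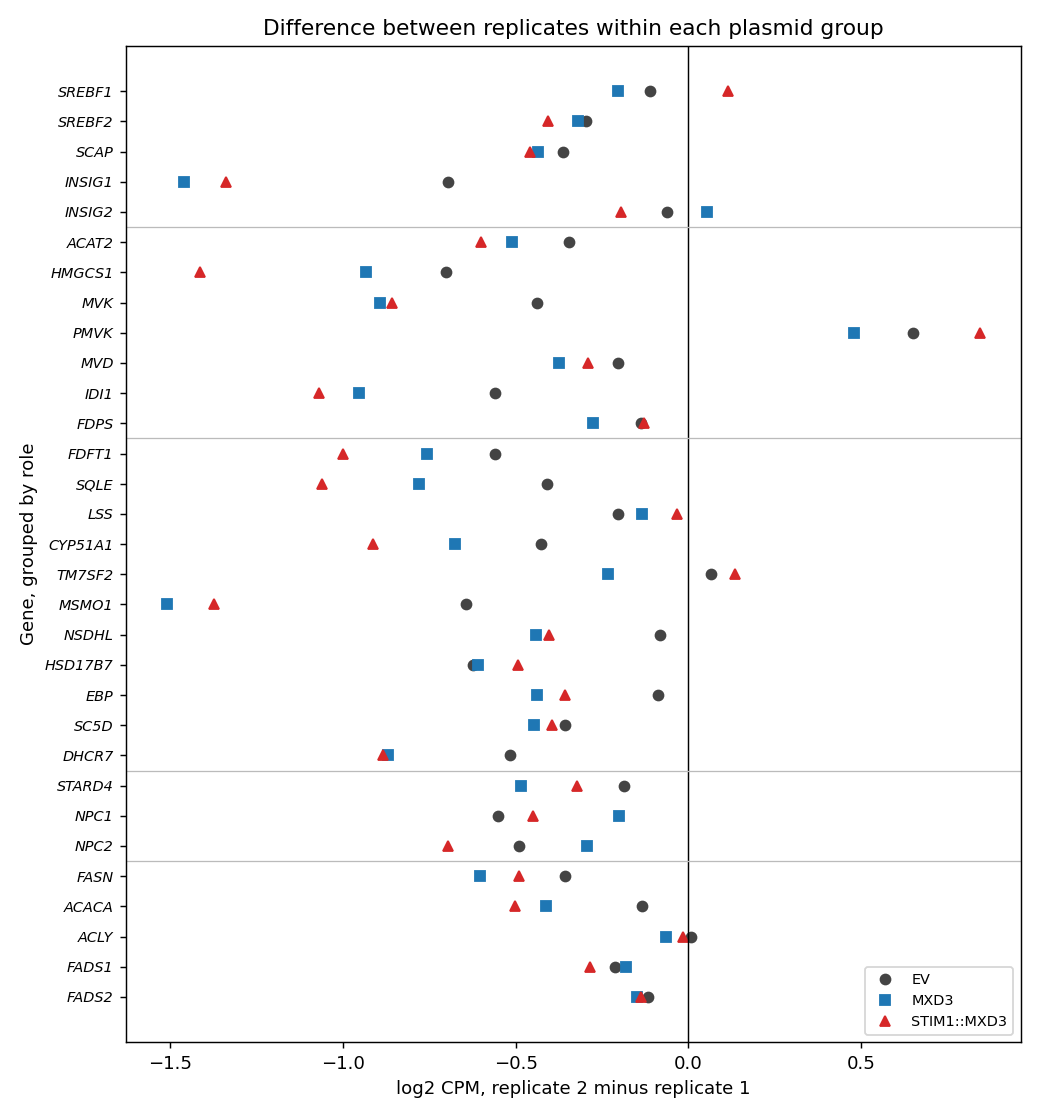
Log2 CPM of the replicate 2 library minus that of the replicate 1 library for each of the 31 genes, in EV (circles), MXD3 (squares) and STIM1::MXD3 (triangles); genes are grouped by role and the vertical line marks no difference. Most points lie left of the line in all 3 groups, the 3 PMVK points lie right of it, and the INSIG1 and MSMO1 points of EV lie nearer to it than those of the other groups.

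The difference was present in each plasmid group taken alone. The replicate 2 library was lower for 28 of 31 members in EV, 29 in MXD3 and 28 in STIM1::MXD3, with median log2 differences of -0.35, -0.44 and -0.45, beside -0.006, -0.009 and 0.008 over all genes. For INSIG1 the log2 differences were -0.70, -1.46 and -1.34, and for MSMO1 -0.64, -1.51 and -1.38, in the order EV, MXD3 and STIM1::MXD3. For NPC1 the order was different, at -0.55, -0.20 and -0.45. Whether the replicate difference depended on the plasmid could not be tested, because 6 libraries leave no degrees of freedom for that interaction. The replicate 1 library of MXD3 was the highest of the 6 for 18 members (58.1%, beside 14.4% of all genes), and the replicate 2 library of STIM1::MXD3 was the lowest for 19 members (61.3%, beside 21.2%).

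Several other measures of the libraries are given beside this result. The summed level of the 10 K562 markers was 8691, 9199 and 9751 CPM in the replicate 1 libraries of EV, MXD3 and STIM1::MXD3. It was 7949, 7853 and 7074 CPM in the replicate 2 libraries, so the sum was also lower in replicate 2 of each group. Single markers could go the other way. In EV, TAL1 was at 227 and 236 CPM and EPOR at 34.4 and 36.6 CPM in replicates 1 and 2. The summed level of the 9 markers of other cells was 129, 119 and 136 CPM in replicate 1 and 115, 112 and 115 CPM in replicate 2, with MS4A1 at 0 in every library. Mitochondrial genes held 2.73%, 1.45% and 1.56% of the counts in replicate 1 and 1.54%, 3.73% and 2.90% in replicate 2, which overlapped. Total counts of the replicate numbers overlapped too. The part of these measures in the result was not tested. The number of members called stayed between 19 and 24 when any 1 library was left out.

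**Figure D4:**
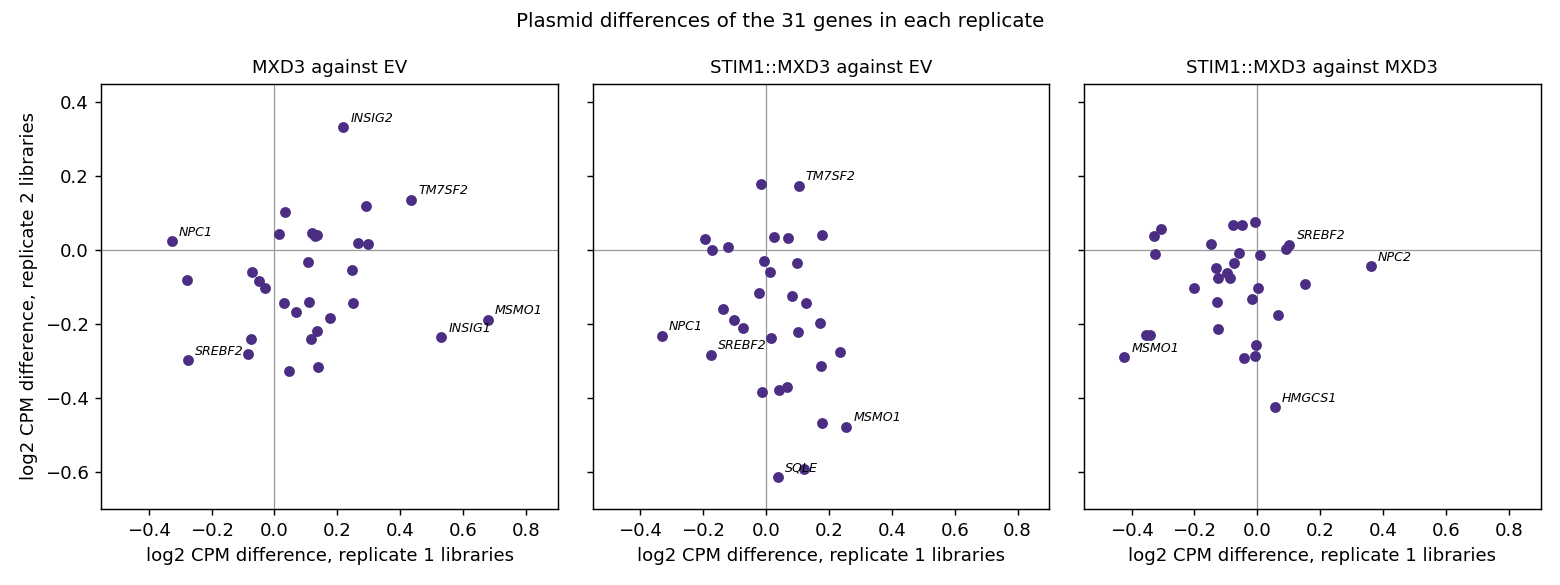
Log2 CPM difference between plasmid groups for each of the 31 genes, from the replicate 1 libraries (horizontal axis) and from the replicate 2 libraries (vertical axis); grey lines mark no difference and some genes are labelled. Against EV many points lie in the lower right part, higher in replicate 1 and lower in replicate 2, whereas STIM1::MXD3 against MXD3 has 17 of 31 points at the lower left.

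The plasmid differences were also taken within each replicate number. In MXD3 against EV, 13 of 31 members (41.9%) were higher in replicate 1 and lower in replicate 2, beside 18.7% of all genes. The opposite held for 1 member, NPC1 (3.2%, beside 19.2%). In STIM1::MXD3 against EV, 15 of 31 members (48.4%) were higher in replicate 1 and lower in replicate 2, beside 24.8% of all genes. Another 4 members did the opposite (12.9%, beside 22.9%). INSIG1 differed from EV by 0.53 in replicate 1 and by -0.24 in replicate 2 for MXD3, and by 0.18 and -0.47 for STIM1::MXD3. In both replicate numbers, 10 members were higher and 7 lower in MXD3 against EV (32.3% and 22.6%, beside 30.6% and 31.5% of all genes). For STIM1::MXD3 against EV, 4 were higher and 8 lower in both (12.9% and 25.8%, beside 27.1% and 25.1%). SREBF2 was among those lower, at -0.28 and -0.30 for MXD3 and at -0.17 and -0.28 for STIM1::MXD3. These comparisons share the EV libraries, and the shares are descriptions without a test.

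A further 36 genes around the pathway were examined from 4 lists, and all were tested. None was called by edgeR in the 3 plasmid comparisons, with or without the block, or by DESeq2 without the block. DESeq2 with the block called 0 of the genes to which it gave an adjusted p, which were 34 for MXD3 and 30 for the fusion against EV, and 5 for the fusion against MXD3. At an unadjusted p under 0.05 edgeR gave 1 of them for STIM1::MXD3 against EV and 0 for the other comparisons, and with the block 3 for STIM1::MXD3 against EV, 9 for MXD3 against EV and 1 for STIM1::MXD3 against MXD3 (8.33%, 25.0% and 2.78%, beside 8.5%, 13.9% and 6.49% of all genes). Between the replicate numbers, 19 of 36 were called, beside 29.2% of all genes. Of these, 16 were lower in replicate 2 and 3 higher, beside 16.1% and 13.1% of all genes. The median log2 difference of the 36 was -0.14, beside -0.40 for the 31 members.

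Of 13 further lipid genes, 8 were lower in replicate 2 and 1 was higher. ME1, the malic enzyme that makes NADPH, was at 58.4, 52.5 and 59.4 CPM in the replicate 1 libraries and at 39.6, 31.9 and 28.4 CPM in the replicate 2 libraries of EV, MXD3 and STIM1::MXD3. All replicate 1 libraries were higher, with an edgeR log2 difference of -0.78 (SE 0.095, adjusted p = 4.3e-05). SCD, the stearoyl-CoA desaturase, was at 1570, 1669 and 1595 CPM in replicate 1 and at 1180, 1140 and 1035 CPM in replicate 2, with an edgeR log2 difference of -0.53 (SE 0.068, adjusted p = 5.69e-05). PCYT2, of phosphatidylethanolamine synthesis, was higher by 0.36 on the log2 scale (edgeR adjusted p = 0.00192). Of 5 further sterol genes 3 were lower, among them ERG28 with a log2 difference of -0.62 and SOAT1, which esterifies cholesterol, with -0.31.

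Of 8 genes of SREBP cleavage and sterol-dependent protein degradation, 2 were lower in replicate 2, among them the ubiquitin ligase RNF139 (log2 difference -0.39), and 1 was higher, the site-1 protease MBTPS1 (0.21, edgeR adjusted p = 0.0331). The site-2 protease MBTPS2 differed by -0.13 and was not called. Of 10 genes of the isoprenoid branch, which uses farnesyl diphosphate for other products, 3 were lower (PDSS2, GGPS1 and FNTA) and 1, IDI2, was higher, at 2.38 to 5.65 CPM. The shares called lower were 61.5% of the further lipid genes, 60.0% of the further sterol genes, 30.0% of the isoprenoid genes and 25.0% of the processing genes, beside 16.1% of all genes and 74.2% of the 31 members. These lists are small, and the difference between them was not tested.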

How the data were processed

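Poly A mRNA libraries from 6 K562 cultures were sequenced as read pairs. The deposited values are raw counts per gene, made by the authors against hg19; the submitters' processing notes name HISAT2 2.2.1 and featureCounts 2.0.1. The annotation, the use of strand and whether reads or read pairs were counted are not given in the sources used here. Of the counts from 1 to 39, 59.8% to 67.3% were even, so counts divided by 2 were also tried. Members were matched by NCBI Gene ID, and positions, exon lengths and overlaps came from the GRCh37 annotation.

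After filterByExpr and TMM scaling, edgeR 4.0.16 (R 4.3.3; quasi-likelihood, two-sided) was fitted to all 6 libraries with 1 coefficient per group. Benjamini-Hochberg adjustment covered the 15431 genes kept. Replicate number 2 was compared with 1 with the groups as terms. DESeq2 1.42.0, the replicate block, other scaling and filters, GC content and length offsets and leaving out each library were alternatives. Log2 CPM used a prior count of 2. The fits were tested on simulated data. For the plasmid comparisons these held no difference between replicate numbers, so they cannot show how fits without the block behave here.

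The labels number the libraries of every group 1 and 2. Across 15431 genes, libraries with 1 number deviated together from the means of their groups (r = 0.270 between EV and MXD3, 0.364 between EV and the fusion, 0.450 between MXD3 and the fusion), so the numbers were taken to pair the libraries; this pairing comes from the data, since the labels do not say that a number marks a shared day or batch.

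The members, the lists and the rule for naming genes were chosen with earlier results of these data known. Every member was named with its level. Tests were printed for members called with or without the block (the 6 with the smallest p where there were more). Otherwise they were printed for the 4 with the smallest unadjusted p in edgeR without the block. Single values of some listed genes are not reported here.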

Additional observations from a re-analysis of the deposited data

Results flagged for a closer look

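The median log2 difference of the 31 genes had opposite signs in the 2 replicate numbers for both constructs against EV. For MXD3 against EV it was 0.115 in the replicate 1 libraries and -0.082 in the replicate 2 libraries. For STIM1::MXD3 against EV it was 0.039 and -0.19. With 1 library per group and number the difference between the replicate numbers was not tested, and both comparisons share the EV libraries.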

How the results depend on the processing

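No member was called in a plasmid comparison under any setting, except 1 (SREBF2) for MXD3 against EV in DESeq2 with the replicate block; that fit gave an adjusted p to 28 of 31 members for STIM1::MXD3 against EV and to 9 for STIM1::MXD3 against MXD3. With the replicate block edgeR called 3 genes of all genes for STIM1::MXD3 against EV (1 without), 45 for MXD3 against EV (1 without) and 1 for STIM1::MXD3 against MXD3 (0 without). In the same order DESeq2 called 3, 3 and 1, DESeq2 with the block 29, 243 and 11, and GC content and length offsets with the block 3, 84 and 1. Without a filter on low counts the first comparison gave 2 and the last 1. Leaving out 1 library gave 1 to 2 genes for MXD3 against EV and 2580 to 4424 for the replicate numbers (4499 with all), and medians of the members of -0.308 to 0.163 for STIM1::MXD3 against EV, -0.248 to 0.2 for MXD3 against EV and -0.266 to 0.19 for STIM1::MXD3 against MXD3. The last median was -0.087 in DESeq2 and with GC content and length offsets, -0.086 in DESeq2 with the block, with RLE size factors and without a filter, -0.085 at a mean CPM of at least 5 and -0.096 with the offsets and the block. NPC1 in STIM1::MXD3 against EV (-0.538 to 0.013), ACACA in MXD3 against EV (-0.038 to 0.352) and FASN in STIM1::MXD3 against MXD3 (-0.563 to 0.023) changed sign when 1 library was left out. Between the replicate numbers 19 members were called in all 14 settings and 5 in none. The 7 members named with their tests kept direction and call in all 13 alternatives. In DESeq2 the SE was 0.321 for INSIG1 and 0.267 for MSMO1, against 0.108 and 0.117 in edgeR. For HMGCS1 it was 0.108, against 0.1 in edgeR. The cause of these changes was not tested.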
